A study of Mus musculus with 2 samples.

Results

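CD4 T cells of the mouse liver were picked out of 2 single-cell libraries by their own transcripts. A cell barcode was a member when it had at least 200 genes, mitochondrial transcripts at no more than 20% of its unique molecular identifiers (UMIs, each counting 1 captured RNA molecule), at least 2 UMIs of Cd3d, Cd3e and Cd3g together and at least 1 UMI of Cd4, with no UMI of Cd8a, Cd8b1, Foxp3, Zbtb16, Csf1r, Cd79a or Siglech. The members were thus chosen by the measured UMIs of these genes, and those values are not results. The rule gave 514 members of 34080 barcodes, or of the 25424 barcodes that passed the filters on genes and mitochondrial share. The control library held 348 of them and the MC38 library 166.

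Both libraries came from hepatic mononuclear cells of C57BL/6 mice, taken on day 14 after an injection into the spleen. The control mice received PBS and are labelled as having no tumor, and the mice of the other group received MC38 cells, a colon adenocarcinoma line of the same mouse strain that seeds the liver from the spleen. The protocol given for both groups names 500000 MC38 cells into the spleen with immediate removal of the spleen, and 3000000 MC38 cells under the skin. The labels do not state whether the control mice carried a tumor under the skin or lost the spleen, so the groups may differ in more than liver tumor. The labels give neither age nor sex. Livers were minced, hepatocytes were depleted by slow spins, and mononuclear cells were taken from a density gradient, so the cells next to and within the tumor were not separated. Each library pooled 3 mice, and there was 1 library per group. Differences between the groups therefore have no replicate check and no test, and the intervals printed below cover counting error only. A gene is called higher or lower here when its level differed 2-fold or more.

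CD4 T cells read peptides on MHC class II molecules and steer other immune cells through cytokines and surface ligands. Naive cells circulate between blood and lymph nodes and carry the homing receptor Ccr7, whereas cells that settle in the liver carry Cxcr6, the receptor for the chemokine Cxcl16 made there. Repeated contact with antigen, as in a tumor, is known to bring up inhibitory receptors such as Pdcd1 and Lag3 together with costimulatory receptors of the TNF receptor family such as Tnfrsf4 (OX40). The mouse liver is also rich in innate-like T cells, among them natural killer T cells, which can carry Cd4, the surface lectin Klrb1c (NK1.1) and an invariant receptor built from Trav11.

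Against the name "conventional", 36.8% of members of the control library had transcripts of innate-like T cells, against 3.61% of those of the MC38 library. Whether regulatory T cells with no captured Foxp3 UMI were among the members was not tested. Cd3e was seen in 78.7% of control members and 71.7% of MC38 members, and Trac, the constant part of the alpha chain of the T cell receptor, in 83.6% and 71.1%. A UMI of Klrb1c was found in 117 of 348 control members (33.6%, exact 95% interval 28.7 to 38.9%) and in 3.01% of MC38 members. The Klrb1c share was 66.4% in control T barcodes with Zbtb16, the factor that defines natural killer T cells and that the rule excluded, 14.7% in control CD8 T barcodes and 2.4% in control B cell barcodes, which should lack the gene. With every member thinned to 1000 UMIs, the Klrb1c share was 9.20% in control and 0% in MC38 members. Trav11 was seen in 19 control members (5.46%) and in 0 of 166 MC38 members. Variable segments were captured in few cells, with any Trav UMI in 17.2% and 13.3% of members, and whether the kit read the end of the transcript that holds them could not be settled here, so a cell without a Trav11 UMI may still use it. The gamma chain constant genes Tcrg-C1 and Tcrg-C4 gave 101 and 131 UMIs in control members against 4 and 9 in MC38 members, while Tcrg-C2 gave 96 and 48 (37.6 and 51.4 CPM), with 72.9% of the MC38 UMIs in 5 cells.

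In all, 128 control members (36.8%, interval 31.7 to 42.1%) and 6 MC38 members (3.61%, interval 1.34 to 7.70%) had a UMI of Klrb1c, Trav11, Trav11d or Trdc. Within the control library these innate-marker cells differed from the other members in genes that did not define them. Gzma, a granzyme of killer cells, was at 356 CPM (UMIs of a gene scaled to 1000000 UMIs of the cells) against 26.2 CPM in the rest, and Ifng at 162 against 33.4 CPM. Klf2, which keeps lymphocytes in circulation, was at 127 against 675 CPM, and the egress receptor S1pr1 at 11.8 against 177 CPM. The whole set is therefore called CD4-gated T cells here, and results are given also without innate-marker cells, which leaves 220 control and 160 MC38 cells. Innate-like cells with no captured UMI of these genes stay among the 220 and 160. Even in control T barcodes with Zbtb16, Klrb1c was seen in 66.4% and Trav11 in 4.98%. Leaving out innate-marker cells thus removes such cells only in part, and the part that stays in the ratios was not tested.

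**Figure D1:**
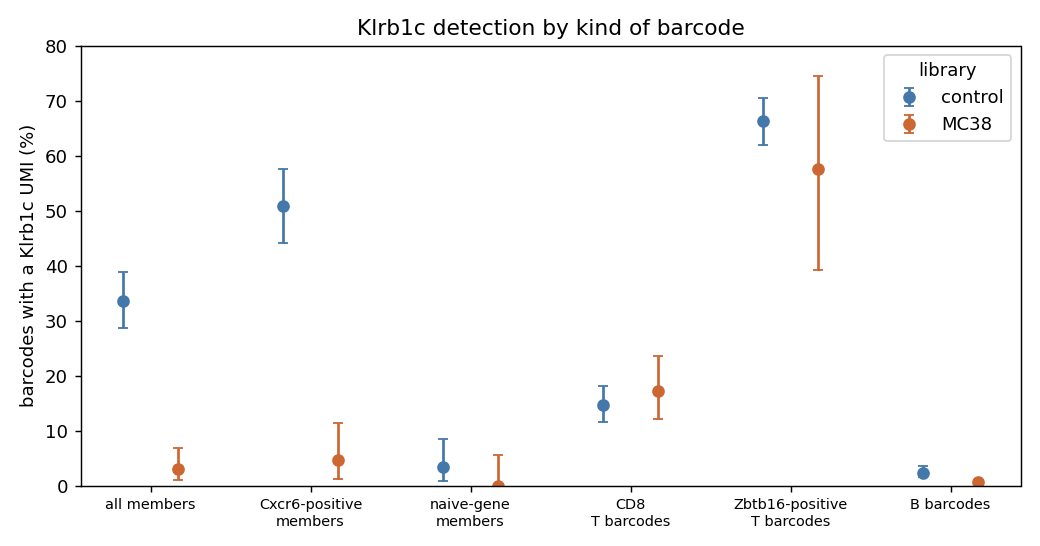
Share of barcodes with a UMI of Klrb1c (percent, y axis) in kinds of barcode of the control and the MC38 library, with exact binomial 95% intervals. CD4-gated T cells stand at 33.6% in control and 3.01% in MC38, and the Cxcr6-positive cells among them at 50.9% and 4.65%.

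The libraries held 14258 (control) and 19822 (MC38) barcodes and 91617457 and 114421875 UMIs. CD4-gated T cells had a median of 6165 UMIs and 2003 genes in control and 4596.5 UMIs and 1783.5 genes in MC38, with 2550511 and 934091 UMIs summed. Their median mitochondrial share was 11.9% in control and 7.60% in MC38. Just beyond the 20% limit, at 20 to 22%, 39 control and 3 MC38 barcodes met the rest of the rule. Just inside it, above 18%, were 34 and 4 members. At any share above 20%, 234 control and 11 MC38 barcodes met the rest, so the limit took out far more control cells. With a limit of 30% there were 506 and 173 members. Members with exactly 1 Cd4 UMI numbered 212 and 77. The libraries shared 63 barcode sequences, and none of them joined a member of one to a member of the other. RNA of other cells lay on these cells and differed between the libraries. All 8 of 8 hepatocyte markers were detected in both, and their summed level was 248 CPM in control and 1963 CPM in MC38. Monocyte and macrophage markers, 8 of 9 detected with Csf1r at 0 by the rule, summed to 418 and 1083 CPM. A single control barcode held 6194 of the 6249 hemoglobin and other erythroid UMIs of its group and another held 1583 of its 1602 neutrophil UMIs. In MC38, 1 barcode held 2709 of 3788 erythroid UMIs. Levels in B cell barcodes of the same library are therefore given where a gene's RNA may be free, and the part of such RNA in the results was not tested.

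CD4-gated T cells were a smaller share of the MC38 library and a larger share of its T cells. They were 4.30% of barcodes that passed the filters in control (interval 3.87 to 4.77%) and 0.957% in MC38 (interval 0.818 to 1.11%). Of T barcodes without UMIs of the excluded lineages, they were 348 of 2156 in control (16.1%, interval 14.6 to 17.8%) and 166 of 654 in MC38 (25.4%, interval 22.1 to 28.9%). T barcodes with Zbtb16 moved the other way, from 22.4% in control to 5.05% in MC38. T barcodes with a UMI of Foxp3, the factor of regulatory T cells, were 1.35% and 5.35%. A Cd4 UMI was not required of them, and 19 of 29 in control and 14 of 35 in MC38 had one. Shares from a density gradient depend on which other cells were recovered, and fewer cells of a type cannot be told apart here from more cells of the others. The mitochondrial limit bore on these shares, since it took out 6059 control and 2229 MC38 barcodes.

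These cells were split by their own genes into a Cxcr6-positive range and a range with genes of naive cells. Cxcr6 was seen in 220 control members (63.2%) and 86 MC38 members (51.8%), and after thinning in 36.2% and 33.1%. A UMI of a naive-cell gene set that includes Ccr7 and the factor Lef1, without Cxcr6, was seen in 33.3% and 38.0%, and 12 and 17 cells had neither. Of the Cxcr6-positive cells, 92 in control and 30 in MC38 (26.4% and 18.1% of members) also had a UMI of that gene set. These are ranges cut at 1 UMI and not cell types, and Cxcr6-positive cells were also the deeper ones, at medians of 6496.5 and 5403 UMIs against 5557.5 and 4058. Genes the split did not use went with it in both libraries. Klf2 was at 198 CPM in Cxcr6-positive and 1033 CPM in naive-gene cells of the control library, and at 174 and 978 CPM in those of the MC38 library. S1pr1 was at 35.8 and 272 CPM in control and at 30.1 and 258 CPM in MC38. The chemokine Ccl5, a product of effector cells, ran opposite, at 1573 and 211 CPM in control and 2510 and 27.9 CPM in MC38. The granule protein gene Nkg7 did likewise, at 1026 and 110 CPM in control and 1526 and 41.9 CPM in MC38. Tcf7, a factor of naive and memory cells, was at 91.0 and 455 CPM and at 79.8 and 629 CPM.

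Of the 12 genes named by rank at higher levels in CD4-gated T cells of MC38 livers, 5 were inhibitory receptors or TNF receptor family costimulators: Pdcd1, Tnfrsf4, Lag3, Tnfrsf9 and Ctla4. Of 9070 genes with at least 20 UMIs in both libraries together, 681 were 2-fold or more higher (7.51%) and 448 lower (4.94%), with a median log2 ratio of 0.06. Pdcd1, the receptor blocked by checkpoint antibodies (chr1:94038305-94052553, minus strand, GRCm38), had 29 UMIs in control and 176 in MC38, or 11.4 and 188 CPM. That is a log2 ratio of 4.05 (interval 3.48 to 4.67). A Pdcd1 UMI was seen in 21 control cells (6.03%) and 60 MC38 cells (36.1%), against 0.2% and 0.307% of B cell barcodes. At 1000 UMIs per cell the shares were 1.44% and 11.4%, so the higher share in MC38 was found at equal depth too. Tnfrsf4 (chr4:156013843-156016612, plus strand), which sustains CD4 T cells after activation, was at 39.6 and 359 CPM, a log2 ratio of 3.18 (2.85 to 3.51), with a UMI in 10.9% and 42.8% of cells. Lag3 (chr6:124904361-124911705, minus strand), an inhibitory receptor that binds MHC class II, was at 10.2 and 103 CPM, a log2 ratio of 3.33 (2.70 to 4.02). The 5 cells with most Lag3 UMIs held 65.4% of them in control and 41.7% in MC38, so few cells carried it. Ctla4, which competes with Cd28 for its ligands, was at 4.70 and 52.5 CPM, a log2 ratio of 3.48 (2.55 to 4.53).

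Leaving out innate-marker cells lowered these ratios, most for Lag3 and Tnfrsf4, and the genes stayed 2-fold or more higher. The Tnfrsf4 ratio fell below its interval over all members. Without them the log2 ratio was 3.71 (3.08 to 4.40) for Pdcd1, 2.67 (2.33 to 3.02) for Tnfrsf4, 2.77 (2.11 to 3.48) for Lag3 and 3.06 (2.06 to 4.21) for Ctla4. In that comparison 8.23% of 8239 genes were 2-fold or more higher and 3.65% lower. Within the list of 13 checkpoint genes, 11 had enough UMIs. Over all members 6 were 2-fold or more higher and 1 lower (7.51 and 4.94% of all genes). The median log2 ratio was 1.79 over all members and 1.17 without innate-marker cells. Besides the genes above, Havcr2 (TIM-3) was at 5.88 and 48.2 CPM and Tox, a factor of chronically stimulated T cells, at 32.2 and 117 CPM. Cd200 was at 10.2 and 35.3 CPM, and 5 cells held 63.6% of its MC38 UMIs. Cd160, which natural killer T and CD8 T cells also carry, was the one lower, at 104 and 39.6 CPM (log2 ratio −1.39, −1.92 to −0.89). Tigit was hardly captured, with 2 and 1 UMIs, and is not compared.

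**Figure D2:**
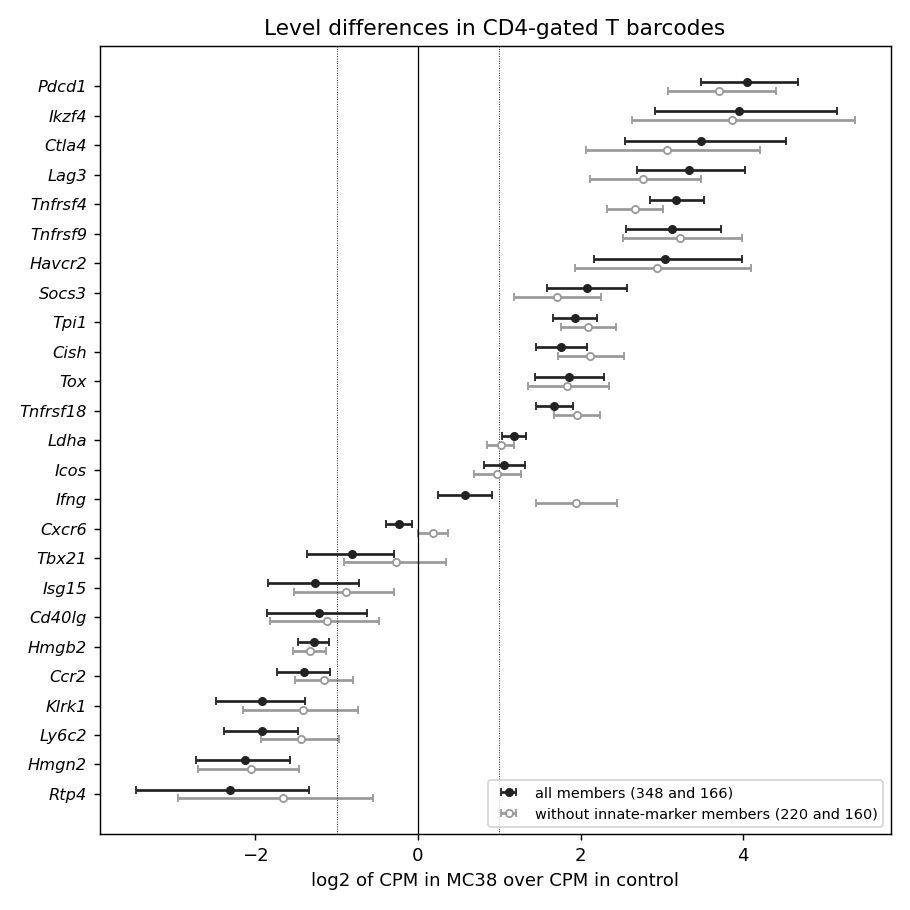
Log2 ratio of CPM in MC38 over control (x axis) for named genes in CD4-gated T cells, over all members (black) and without innate-marker cells (grey open points), with 95% counting intervals and dotted lines at a 2-fold difference. Pdcd1 stands at 4.05 over all members and 3.71 without innate-marker cells, and Klrk1 at −1.91 and −1.41.

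Genes best known from regulatory T cells were higher in these Foxp3-negative cells. Of 10 tested in the regulatory list, 8 were 2-fold or more higher (7.51% of all genes) and 0 lower, with a median log2 ratio of 1.67 over all members and 1.71 without innate-marker cells. In CD8 T barcodes 7 of 10 were higher (6.2% of all genes) with a median of 1.80, so this was not a trait of CD4-gated cells alone. Ikzf4 (Eos), a partner of Foxp3, was at 3.53 and 54.6 CPM, a log2 ratio of 3.95 (2.92 to 5.16), with a UMI in 9 control and 31 MC38 cells. The costimulators Tnfrsf9 and Tnfrsf18 (GITR) were at 13.3 and 117 CPM and at 120 and 382 CPM. Capg, Nt5e (CD73) and Ikzf2 (Helios) had log2 ratios of 1.66, 1.39 and 1.10. Capg was at 71.4 and 226 CPM in members and at 262 and 247 CPM in B cell barcodes. Free RNA may make up part of it, which was not tested. Il2ra, the high-affinity interleukin-2 receptor chain, did not follow, at 41.6 and 45.0 CPM (log2 ratio 0.11, −0.44 to 0.64), nor did Tgfb1 at 133 and 149 CPM. The gated Foxp3-positive barcodes of the same libraries, 29 and 35, held Ctla4 at 308 and 297 CPM and Ikzf2 at 1248 and 861 CPM, well above the 52.5 and 106 CPM of the Foxp3-negative cells in MC38. Pdcd1 ran the other way, at 58.6 CPM in Foxp3-positive and 188 CPM in CD4-gated T cells of the MC38 library. A regulatory T cell with no captured Foxp3 UMI would count as a member, and the part of such cells was not tested.

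Pdcd1, Lag3 and Tnfrsf4 were found mainly in the Cxcr6-positive range of the MC38 library. Pdcd1 was seen in 61.6% of Cxcr6-positive cells in MC38 (interval 50.5 to 71.9%) and 7.73% in control (4.57 to 12.1%). Among naive-gene cells it was seen in 4.76% (0.993 to 13.3%) and 1.72% (0.209 to 6.09%). Tnfrsf4 was seen in 69.8% and 10.5% of Cxcr6-positive cells, and in 9.52% and 9.48% of naive-gene cells. The naive-gene shares of Tnfrsf4 were thus close, while its CPM in that range was 97.8 in MC38 against 17.9 in control. Lag3 was seen in 33.7% and 3.18% of Cxcr6-positive cells and in 1.59% and 2.59% of naive-gene cells. With innate-marker cells left out of the Cxcr6-positive range, the log2 ratio was 3.75 for Pdcd1, 3.64 for Lag3, 3.36 for Tnfrsf4 and 3.49 for Ctla4, where 8.31% of 6679 genes were 2-fold or more higher and 5.41% lower. Of the checkpoint list, 7 of 11 tested genes were higher and 1 lower in Cxcr6-positive cells, where 8.48% of all genes were higher and 6.91% lower. In naive-gene cells 2 of 4 tested were higher and 0 lower, where 7.24% of all genes were higher and 7.46% lower, and the other genes of the list had too few UMIs there.

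Tbx21, the factor of type 1 helper cells, was seen less often in Cxcr6-positive cells of MC38, and innate-marker cells bore on this. It was seen in 45.0% of Cxcr6-positive control cells and 25.6% of Cxcr6-positive MC38 cells, and in 5.17% and 0 of 63 naive-gene cells. With innate-marker cells left out, its level in Cxcr6-positive cells was 71.8 and 56.9 CPM (log2 ratio −0.34, −1.02 to 0.32), within counting error. Cd44, carried by cells that have met antigen, was seen in 75.0% and 66.3% of Cxcr6-positive cells, whose intervals overlap. Inside the MC38 library, the 60 cells with a Pdcd1 UMI had a Tnfrsf4 UMI in 73.3%, Tox in 63.3% and Lag3 in 40.0%, against 25.5%, 22.6% and 6.60% of the 106 cells without one. In control the 21 cells with a Pdcd1 UMI had Tnfrsf4 in 47.6% and Lag3 in 28.6%, against 8.56% and 1.83% of the other 327. Cells with a Pdcd1 UMI thus had Tnfrsf4 and Lag3 more often, yet in control 28 of 38 cells with Tnfrsf4 and 6 of 12 with Lag3 had no Pdcd1 UMI. Deeper cells show a UMI of any gene more often.

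**Figure D3:**
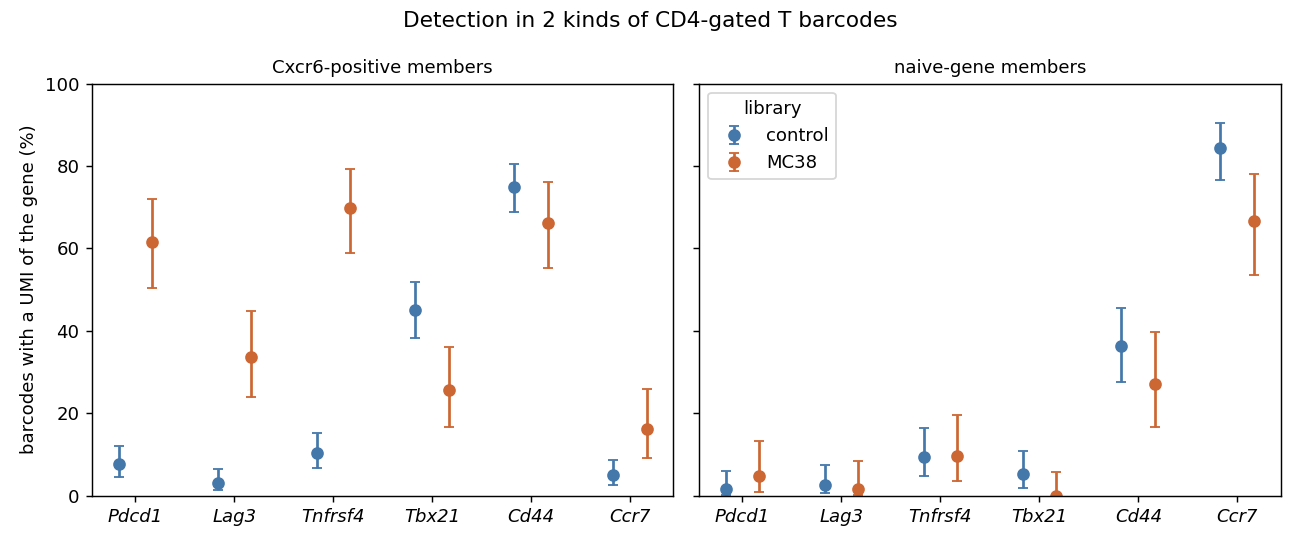
Share of CD4-gated T cells with a UMI of 6 genes (percent, y axis) in Cxcr6-positive and naive-gene cells of each library, with exact binomial 95% intervals. Pdcd1, Lag3 and Tnfrsf4 stand high in Cxcr6-positive MC38 cells (61.6, 33.7 and 69.8%), and Tbx21 at 25.6% against 45.0% in Cxcr6-positive control cells, a difference within counting error in CPM once innate-marker cells are left out (log2 ratio −0.34, −1.02 to 0.32).

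CD8 T barcodes, 483 in control and 179 in MC38 and gated by the same rule with Cd8a or Cd8b1 in place of Cd4, shared the higher Pdcd1 and differed in other genes. Among them 6.2% of 9483 genes were 2-fold or more higher in MC38 and 3.46% lower. The log2 ratio of Pdcd1 was 3.66 in CD8 cells, and the difference between the CD4 and CD8 ratios was 0.39 (−0.38 to 1.16), within counting error. Tnfrsf4 was at 2.38 and 50.4 CPM in CD8 cells, so its ratio was larger there while its level in MC38 was higher in CD4-gated cells. Tox and Havcr2 had a larger ratio in CD4-gated cells, by 1.23 (0.67 to 1.78) and 1.87 (0.83 to 2.91) on the log2 scale. Il7r, the survival receptor of resting T cells, was at 257 and 495 CPM in CD4-gated cells and at 435 and 256 CPM in CD8 cells, a difference of 1.71 (1.47 to 1.95). Cd160 ran opposite, at 89.6 and 183 CPM in CD8 cells, a difference of −2.41. The chromatin protein gene Hmgn2 was at 136 and 31.0 CPM in CD4-gated and at 116 and 110 CPM in CD8 cells, a difference of −2.05 (−2.66 to −1.45). These differences compare 4 pools of cells from 2 libraries, not the conditions. The CD4-gated pools kept their innate-marker cells, 36.8% of control and 3.61% of MC38 members. The part of those cells in the differences was not tested.

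Costimulation genes did not share one direction. Of 13 tested, Tnfrsf4, Tnfrsf9 and Tnfrsf18 included, 5 were 2-fold or more higher and 2 lower (7.51 and 4.94% of all genes), with a median log2 ratio of 0.35 over all members and 0.96 without innate-marker cells. Icos, which supports help to B cells, was at 118 and 247 CPM (log2 ratio 1.06, 0.81 to 1.31). Cd40lg, the ligand through which CD4 T cells license dendritic and B cells, was at 67.0 and 28.9 CPM (log2 ratio −1.21, −1.86 to −0.62), with a UMI in 35.3% and 14.5% of cells, and the ratio was −1.12 without innate-marker cells. Cd28 was at 248 and 240 CPM. Of 7 tested genes of follicular helper cells, 4 were 2-fold or more higher and 0 lower (7.51 and 4.94% of all genes). The 4 were Pdcd1, Icos, Izumo1r (35.7 and 80.3 CPM) and Tox2, which had 7 and 14 UMIs. The defining follicular genes had few UMIs, with Bcl6 at 27 and 15, Cxcr5 at 9 and 1 and Il21 at 3 and 4. Bcl6 was at 10.6 and 16.1 CPM (log2 ratio 0.60, −0.41 to 1.56), with a UMI in 5.46% and 4.22% of cells.

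Genes of the helper programmes showed no shared shift. Of 12 tested genes of type 1 helper cells, 0 were higher and 1 lower (7.51 and 4.94% of all genes), with a median log2 ratio of −0.20. Without innate-marker cells 2 were higher and 0 lower (8.23 and 3.65% of all genes), with a median of 0.25, so the sign turned. Tbx21 was at 69.4 and 39.6 CPM (log2 ratio −0.81, −1.36 to −0.29), and without innate-marker cells at 45.8 and 37.9 CPM (−0.27, −0.91 to 0.34), so counting error covers that difference. Ifng, the cytokine of these cells, was at 85.1 and 127 CPM, and without innate-marker cells at 33.4 and 128 CPM, a log2 ratio of 1.94 (1.46 to 2.45). Its UMIs came from few cells, with a UMI in 22.7% of control and 16.9% of MC38 members and 63.0% of MC38 UMIs in 5 cells. Gata3, of type 2 helper cells, was at 150 and 99.6 CPM (log2 ratio −0.59). Its cytokine Il4 had 47 UMIs in 36 control cells and 1 UMI in MC38 (log2 ratio −4.11, −9.44 to −1.56). Without innate-marker cells the Il4 level was 10.5 and 1.12 CPM. Maf was at 151 and 218 CPM. Of the type 17 genes, Il17a, Il17f and Il22 had no UMI in either library. Il10 had 0 and 8 UMIs and Ccr8 0 and 10 UMIs, too few for a ratio to be given.

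Cytotoxic genes depended on the innate-marker cells. Over all members 3 of 13 tested were 2-fold or more higher and 1 lower (7.51 and 4.94% of all genes), with a median log2 ratio of 0.41. Without innate-marker cells 7 of 12 were higher and 1 lower (8.23 and 3.65% of all genes), with a median of 1.10. The highest were the chemokine genes Ccl4 at 31.8 and 318 CPM (log2 ratio 3.32) and Ccl3 at 23.5 and 201 CPM (3.10), and 5 cells held 99.0% and 95.2% of their MC38 UMIs. Ccl5 was at 1220 and 1757 CPM over all members and at 765 and 1655 CPM without innate-marker cells. Gzma was at 158 and 157 CPM over all members, and without innate-marker cells at 26.2 and 164 CPM, but 5 cells held 97.3% of its MC38 UMIs. Gzmb was at 105 and 78.2 CPM, and without innate-marker cells at 38.6 and 81.5 CPM, with 67.1% of MC38 UMIs in 5 cells. The ratios of both granzymes thus turned on a handful of cells. Ccl5 also turned on how cells were picked, and its log2 ratio was −0.12 when cells with any UMI of other lineages were left out. Klrk1 (NKG2D), an activating receptor of killer cells, was at 129 and 34.3 CPM (log2 ratio −1.91, −2.48 to −1.39) and stayed 2-fold or more lower without innate-marker cells (−1.41, −2.15 to −0.74).

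**Figure D4:**
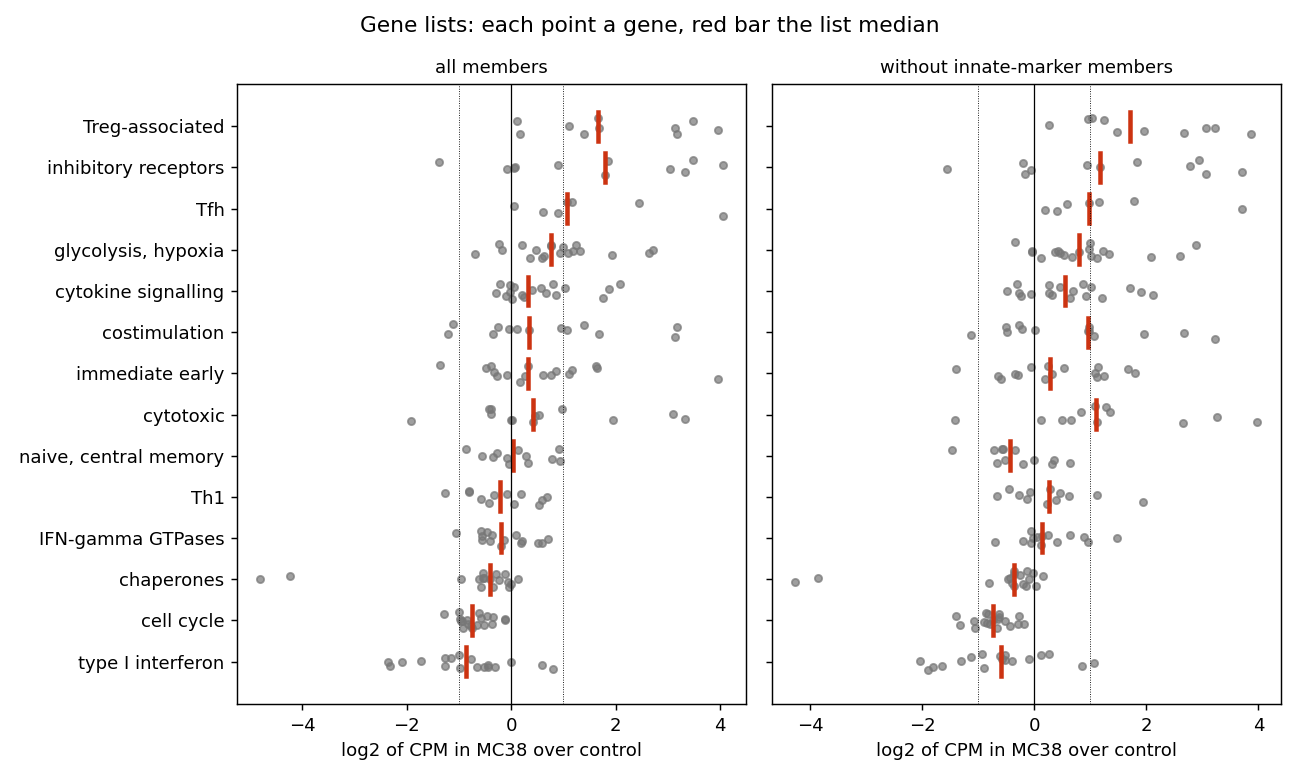
Log2 ratio of CPM in MC38 over control (x axis) of each tested gene of the gene lists drawn (y axis) in CD4-gated T cells, over all members (first panel) and without innate-marker cells (second panel), with the median of each list as a bar. The drawn medians over all members run from 1.79 for the checkpoint list to −0.87 for the type I interferon list, which is −0.59 without innate-marker cells. The innate-like list is not drawn, and its medians were −1.49 and 0.01.

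Several glycolytic enzymes were at higher levels in CD4-gated T cells of the MC38 library. Of 19 tested genes of glycolysis and hypoxia, 7 were 2-fold or more higher (7.51% of all genes) and 0 lower, with a median log2 ratio of 0.77. In CD8 cells 9 of 19 were higher (6.2% of all genes). Tpi1 was at 75.7 and 288 CPM (log2 ratio 1.93), Aldoa at 198 and 490 CPM, and Ldha, which makes lactate, at 322 and 733 CPM. Hif1a, the oxygen-regulated factor, was at 85.9 and 203 CPM. The glucose transporter Slc2a3 was lower, at 44.7 and 27.8 CPM. B cell barcodes of the same libraries moved alike, with Ldha at 142 and 322 CPM and Tpi1 at 66.3 and 145 CPM, and so these differences were not those of CD4 T cells alone. Bnip3 (4.70 and 31.0 CPM) and Slc16a3 (4.31 and 26.8 CPM) were at the level of B cell barcodes in MC38, 27.2 and 26.0 CPM. Arg1, an enzyme of tumor macrophages, had the largest ratio of the genes named by rank, at 3.14 and 215 CPM, but stood at 242 CPM in MC38 B cell barcodes. Plin2, a lipid droplet protein gene, was likewise at 169 CPM in members and 237 CPM in B cell barcodes. Both were at or below the level of B cell barcodes and are not read as expression by these cells.

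A few feedback genes of cytokine signalling were higher. Of 18 tested, 4 were 2-fold or more higher (7.51% of all genes) and 0 lower, with a median log2 ratio of 0.33. Socs3, which is induced through Stat3 and dampens the interleukin-6 receptor, was at 23.1 and 97.4 CPM (log2 ratio 2.07, 1.59 to 2.57), with a UMI in 12.1% and 34.9% of cells. It was at 42.2 and 189 CPM in naive-gene cells, and so its higher level was not limited to the Cxcr6-positive range. B cell barcodes held it at 18.9 and 46.7 CPM. Cish, induced by interleukin-2 family cytokines through Stat5, was at 60.0 and 203 CPM (log2 ratio 1.76, 1.45 to 2.08), with 3.35 and 10.8 CPM in B cell barcodes. Bcl3 was at 17.3 and 63.2 CPM and Stat3 at 117 and 238 CPM. Of the list for transforming growth factor beta, 1 of 10 tested was higher (7.51% of all genes), with a median log2 ratio of 0.02. It was Pmepa1, at 18.4 and 70.7 CPM.

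Other genes named by rank at higher levels in MC38 were Cdk6, Ehd1, Ramp3 and Fabp5. Cdk6, a kinase of G1 phase, was at 28.6 and 177 CPM (log2 ratio 2.63, 2.22 to 3.04) and Ehd1, a protein of endosome recycling, at 14.1 and 89.9 CPM (2.67, 2.09 to 3.28). Ramp3, a partner of the calcitonin receptor family, was at 5.10 and 65.3 CPM, and Fabp5, a fatty acid binding protein gene, at 49.0 and 298 CPM. In MC38, 5 cells held 60.7% of the Ramp3 and 66.2% of the Fabp5 UMIs, and B cell barcodes of MC38 held Fabp5 at 101 CPM, likewise above those of control.

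Several genes that type I interferon induces were at lower levels in CD4-gated T cells of MC38 livers. Type I interferon drives these genes through a complex that binds the interferon-stimulated response element, and the promoters of 4 genes that were lower are shown around the letters GAAA, any 2 bases and GAAA again (on the other strand TTTC, any 2 bases and TTTC), as sense-strand sequence 5′ to 3′ from RefSeq (GRCm38.p6), with matches in capitals.
Isg15, chr4:156200860-156200911 (minus strand): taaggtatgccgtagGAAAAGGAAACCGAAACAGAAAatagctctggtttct
Rsad2, chr12:26456548-26456587 (minus strand): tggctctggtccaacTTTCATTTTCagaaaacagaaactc
Oas1a, chr5:120907526-120907560 (minus strand): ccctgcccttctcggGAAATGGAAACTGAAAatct
Ifit3, chr19:34583358-34583431 (plus strand): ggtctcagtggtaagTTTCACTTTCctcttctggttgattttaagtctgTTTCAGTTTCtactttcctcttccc
The windows lie in the 250 bases before the start site. In Isg15 and Oas1a the matches overlap each other. Of the 16 genes of this list with a promoter entry, 11 held a match between 250 bases before and 50 after the start, as did 1131 of all 32851 promoters (3.44%). Among the tested genes with an entry, 4 of 5 that were 2-fold or more lower held one, and 5 of 7 of the others, so the letters did not separate them. A match is a description of the sequence, not a measured binding site.

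Of 18 tested genes of the type I interferon response, 7 were 2-fold or more lower in MC38 and 0 higher, with a median log2 ratio of −0.87, where 4.94% of all genes were lower. Ifi27l2a, the most abundant, was at 708 and 356 CPM (log2 ratio −0.99, −1.16 to −0.82). Isg15, a ubiquitin-like modifier, was at 82.3 and 34.3 CPM (log2 ratio −1.27, −1.85 to −0.72), with a UMI in 26.4% and 16.3% of cells. Rtp4 was at 47.8 and 9.64 CPM (log2 ratio −2.31, −3.47 to −1.34). Rsad2 (viperin) had 58 and 5 UMIs, Oas1a 42 and 3, Oasl2 54 and 6, Usp18 59 and 9 and Ifit3 79 and 13, so these rest on few molecules. Rsad2 UMIs came from 18 control cells and 1 MC38 cell. Without innate-marker cells 6 were lower and 1 higher (3.65 and 8.23% of all genes), with a median of −0.59, and Isg15 was at 64.1 and 34.6 CPM. In CD8 cells 8 of 18 were lower (3.46% of all genes), with a median of −0.89, and B cell barcodes held Ifi27l2a at 615 and 206 CPM. Guanylate binding proteins and related GTPases, which interferon gamma induces, did not share this. Of 15 tested, 1 was lower and 0 higher (4.94 and 7.51% of all genes), with a median of −0.20.

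Other genes lower in CD4-gated T cells of the MC38 library included a stress chaperone pair. Hspa1b had 154 UMIs in 59 control cells, 60.4 CPM, and 0 in MC38, which a floor of 3 counts places at a log2 ratio of −4.23 or lower. Its near-identical copy Hspa1a had 76 and 1 UMIs, and reads can be split between the 2 genes. B cell barcodes held Hspa1b at 55.2 and 3.65 CPM, and members of the control library had the higher mitochondrial share given above, whose part was not tested. The other 15 tested chaperones were within 2-fold, and the median of all 17 was −0.41. Ccr2, the receptor that draws cells to inflamed tissue, was at 254 and 96.4 CPM (log2 ratio −1.40, −1.74 to −1.08; −1.15 without innate-marker cells), with a UMI in 58.0% and 27.1% of cells. Ccr2 in B cell barcodes was at 101 and 289 CPM, above the members in MC38, and in the opposite direction. Ly6c2, a surface protein of memory T cells with a near copy in Ly6c1, was at 186 and 49.2 CPM, with 82.6% of its MC38 UMIs in 5 cells, and at 217 and 211 CPM in B cell barcodes, so free RNA may make up part of it, which was not tested. Hmgn2 had a log2 ratio of −2.13 (−2.73 to −1.58) and Hmgb2, a chromatin gene high in cycling cells, was at 678 and 278 CPM (−1.28, −1.48 to −1.09). The remaining genes named by rank were Lpar6 (67.8 and 12.8 CPM), Ckb, which makes creatine kinase (190 and 51.4 CPM), St3gal6 (70.2 and 16.1 CPM), Pde3b (104 and 28.9 CPM), Nedd4 (74.9 and 21.4 CPM) and Sptssa (197 and 71.7 CPM).

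Genes of naive cells and of tissue residence gave no common direction over all members, and both medians changed sign without innate-marker cells. Of 12 naive and central memory genes, 0 were 2-fold apart either way, with a median log2 ratio of 0.04. Without innate-marker cells 0 were higher and 1 lower (8.23 and 3.65% of all genes), with a median of −0.44. In CD8 cells the median was −0.77. Lef1 was at 160 and 126 CPM. Ccr7 was at 134 and 229 CPM (log2 ratio 0.77, 0.52 to 1.02), and 5 cells held 56.1% of its MC38 UMIs. Of 14 residence genes, 3 were higher and 1 lower (7.51 and 4.94% of all genes), with a median of −0.24. Without innate-marker cells 3 of 13 were higher and 0 lower (8.23 and 3.65% of all genes), with a median of 0.19. Ahr, the aryl hydrocarbon receptor, was at 21.6 and 63.2 CPM, S100a4 at 487 and 962 CPM and Cxcr6 at 522 and 443 CPM (log2 ratio −0.24, and 0.19 without innate-marker cells). Of 18 traffic receptors, counts were near the shares of all genes (7.51 and 4.94%). The integrin chain Itga4 was the 1 higher, at 136 and 282 CPM, and 2 were lower, Ccr2 and the gut-homing receptor Ccr9 at 41.2 and 12.8 CPM. Without innate-marker cells the log2 ratios of Itga4 and Ccr9 were 0.52 and −0.98.

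The death receptor Fas had 46 UMIs in control and 22 in MC38 (log2 ratio 0.39, −0.42 to 1.15) and its ligand Fasl at 44.7 and 45.0 CPM (0.01, −0.54 to 0.53), both within counting error. Of 18 tested genes of apoptosis, 3 were higher and 1 lower (7.51 and 4.94% of all genes). Pmaip1 and Bbc3 were among those higher, with log2 ratios of 1.26 and 1.14, and Tnfrsf1a was lower at −1.19. Pmaip1 rested on 32 and 28 UMIs and turned to −0.13 when cells with UMIs of other lineages were left out. Immediate-early genes, read as a sign of recent receptor signalling or of handling, had 5 of 17 higher and 1 lower (7.51 and 4.94% of all genes) with a median of 0.33 (0.76 with the mitochondrial limit at 10%). The highest were Nr4a2 with 3 and 17 UMIs and Egr1 at 18.8 and 58.9 CPM, and 5 cells held 88.2% and 67.3% of their MC38 UMIs. Myc, the 1 lower, had 28 and 4 UMIs. Of 19 cell cycle genes 1 was lower and 0 higher (4.94 and 7.51% of all genes), with a median of −0.74. Without innate-marker cells 4 were lower (3.65% of all genes). In naive-gene cells 12 were lower (7.46% of all genes), with a median of −1.29. CD8 cells had 1 higher and 0 lower (6.2 and 3.46% of all genes) with a median of 0.36. Mki67, a marker of dividing cells, was seen in 12.6% and 10.2% of cells. In MC38, 5 cells held 90.1% of Mki67 UMIs, so its level there rested on few cells.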

How the data were processed

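The authors deposited raw UMI counts per gene and barcode as 1 matrix per library. GRCm38.p6 is the build and Cell Ranger 2.2 the pipeline listed in the submitters' processing notes, beside STAR, bcl2fastq, R 3.6.0 and Seurat 2.3.4. The matrix headers name software version 3.0.2 instead, and which made the files was not settled. The labels name a Chromium 5′ kit, which the files did not settle. No cell annotation was used. Barcodes were selected by the rule in the report, chosen, like the gene lists, with earlier results of these data known. Counts of members were summed per library and divided by their total over all genes (CPM). Log2 ratios have exact conditional 95% intervals for 2 Poisson counts, and shares exact Clopper-Pearson 95% intervals. A count of 0 was set to 3. Genes with at least 20 UMIs in both libraries together were tested against the 2-fold limit, with no p-value. The intervals were checked on counts simulated with Poisson error alone. That check does not cover UMIs gathered in few cells, so it does not show that the intervals hold for such genes. PCR copies are collapsed by UMI, so depth is limited by molecules captured per cell.

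Named genes were the first 12 each way by the interval end nearest 0, with at least 50 CPM, detection in 10% of members and 10% of the gene's highest CPM over kinds of barcode in that library, leaving out receptor segment, ribosomal, mitochondrial, hemoglobin, gate and other-cell marker genes. The 2 highest and lowest of each list, of which those a result turned on are given, and a fixed set were added. Other genes, among them Tnfrsf18, Capg, Ldha, Hif1a, Cd28 and those given only as counts, were taken from the lists with their values seen. Doublets were kept, and barcodes called as doublets by Scrublet in scanpy 1.11.5 were left out as an alternative. Other tools were Python 3.11.15, numpy 2.4.6, scipy 1.17.1, pandas 2.3.3 and matplotlib 3.10.9. Alternatives were mitochondrial limits of 10% and 30%, at least 500 genes, at least 2 Cd4 UMIs, no innate-marker cells, no cells with UMIs of other lineages, a minimum of 50 UMIs, median-ratio scaling, totals without mitochondrial, ribosomal and hemoglobin genes, equal weight per barcode, thinning and, added after seeing the data, no cells rich in hemoglobin or S100a8 and S100a9. Positions come from GENCODE M21 and promoters from RefSeq. A few genes of the lists and of the naive-gene split are not reported here.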

Additional observations from a re-analysis of the deposited data

How the results depend on the processing

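No paired analysis was possible because each group has 1 library; for the same reason no replicate could be left out. The values below moved by more than counting error. Requiring 2 Cd4 UMIs, or leaving out innate-marker cells or cells with UMIs of other lineages, removed members only. The totals of T barcodes and of kept barcodes stayed unchanged there. Shares of these totals thus moved through the member counts and are no check on how common CD4-gated T cells were. Thinning lowers a share of cells with a UMI by design, and the minimum of 50 UMIs lowers a count of genes. The cause of the other changes was not tested. All 24 genes named by rank kept their sign in 264 of 264 values over the alternatives, doublet removal and the scalings among them. These genes were picked for intervals far from 0 in largely the same cells. A kept sign was therefore likely from the start and is no independent check. Requiring 2 Cd4 UMIs gave log2 ratios (MC38 over control) of 0.38 for the Cxcr6-positive share, −0.90 for the naive-gene share, 1.11 for the share of T barcodes and −1.71 for the share of kept barcodes. Medians were then 0.74 for costimulation, 0.88 for cytotoxic, −0.39 for innate-like, −0.77 for naive and 0.12 for residence genes, and Ctsw (0.26), Cxcr6 (0.39), Igfbp4 (−0.62) and Tbx21 (0.023) changed sign. Without innate-marker cells the shares gave 0.20, −0.38, 1.26 and −1.56 in the same order, the medians 0.96, 1.10, 0.0058, −0.44 and 0.19, and Ctsw (0.12) and Cxcr6 (0.19) changed sign. Leaving out cells with UMIs of other lineages kept 175 control and 61 MC38 cells and gave 0.20 for the share of T barcodes, −2.62 for that of kept barcodes, medians of −1.52 for cell cycle, −0.46 for cytotoxic and 1.19 for regulatory genes, −0.12 for Ccl5 and −0.13 for Pmaip1, and 430 genes higher. A mitochondrial limit of 10% kept 119 and 122 cells and gave −1.83 for the share of kept barcodes and medians of 0.69 for costimulation, 0.76 for immediate-early and −0.058 for innate-like genes. A minimum of 50 UMIs left 353 genes higher and 216 lower and an innate-like median of −0.22. Thinned, the Trav11 share of control cells was 0.862%. Median-ratio scaling shifted all log2 ratios down by 0.12 and gave 573 genes higher and 565 lower, against 681 and 448. At 934091 UMIs, 3 counts in MC38 members are a floor of about 3.21 CPM, which limits genes such as Il4, Il10 and Ccr8.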
